A study of Mus musculus with 4 samples.

Results

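The lineage transcription factors of macrophages are a set of 9 genes: Spi1, Cebpa, Cebpb, Irf4, Irf8, Maf, Klf4, Bhlhe40 and Bhlhe41. They were chosen by gene symbol, and all 9 were found among the 23420 gene symbols of the deposited table, Spi1 under its older symbol Sfpi1. RNA was sequenced from myeloid cells positive for CD11b, a myeloid integrin, and for CD200R1, the receptor of the surface protein CD200, which were sorted by flow cytometry from orthotopic cutaneous squamous cell carcinomas. All mice were of the FVB/N strain, with 2 libraries of wild-type genotype (WT) and 2 of genotype K14Cre;CD200fl/fl (EpiKO). In EpiKO the keratin 14 promoter drives Cre in epidermal cells, and the submitters describe the tumours of that group as CD200 negative, which was not measured here. Age, sex, pooling of animals and the origin of the replicates are not given in the labels, so p-values measure the spread between these libraries, which may be technical. The comparison of EpiKO with WT asks which genes of CD200R1 positive cells depend on CD200 of the tumour.

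PU.1, the product of Spi1, opens the enhancers of the myeloid lineage and is needed for macrophages to form at all. C/EBP factors act with it in the step from progenitor to monocyte, interferon regulatory factors bind beside PU.1 at composite sites and tune monocyte, macrophage and dendritic cell fates, and KLF4 promotes monocyte formation. MAF restrains self-renewal and marks resident macrophages, whereas BHLHE40 and BHLHE41 are repressors of the basic helix-loop-helix type that sustain the proliferation of tissue macrophages.

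None of the 9 factors passed the test between EpiKO and WT, against 0.947% of the 12463 genes tested across the table (limma, Benjamini-Hochberg adjusted p under 0.05). The largest difference was that of Bhlhe41, which was 2.40 times higher on average in EpiKO, followed by Maf at higher values and Cebpa, Irf4 and Klf4 at lower ones. At an unadjusted p under 0.05 limma gave 3 of the 9, Bhlhe41, Klf4 and Maf, against 15.6% of tested genes. edgeR on the recovered reads called 0 of the 9, against 0.963% of genes. DESeq2 on those reads called the same 3 genes, against 6.04% of the 13468 genes to which it gave an adjusted p. In 6 of the 9 the libraries of both groups did not overlap, 2 higher and 4 lower in EpiKO. Over all tested genes non-overlap held for 47.1%, with 23.3% higher and 23.8% lower. The median log2 fold change of the 9 was -0.20, against -0.0021 over all tested genes. It was above 0 in 4 and below 0 in 5 of them, from -0.64 to 1.22.

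**Figure D1:**
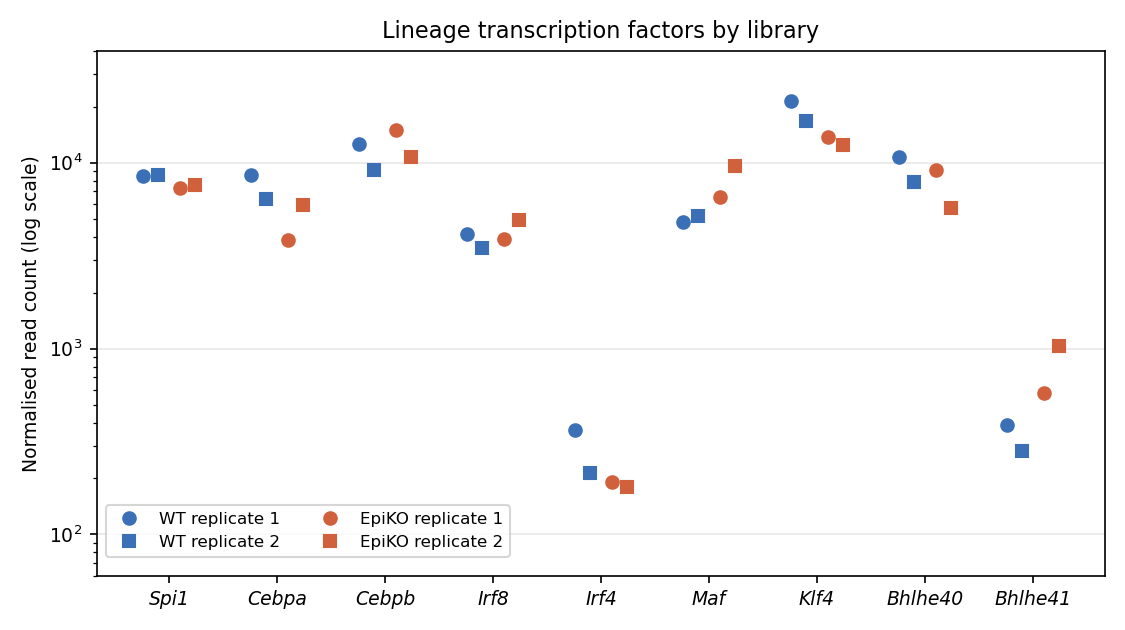
Normalised read count of each factor in the 4 libraries on a log axis, with WT in blue, EpiKO in orange, circles for replicate 1 and squares for replicate 2. Klf4 and Cebpb lie near the top, Irf4 and Bhlhe41 lie lowest, and the WT and EpiKO points stand apart for Spi1, Cebpa, Irf4, Maf, Klf4 and Bhlhe41.

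The libraries held 15884132 to 21244158 reads assigned to genes, and each factor had at least 177 reads in every library. Cd200, the deleted gene, was at 92.7 and 59.7 (WT) against 17.2 and 15.1 (EpiKO), which is no check of the deletion, since the keratin 14 promoter is not one of myeloid cells. The cells these reads came from were not determined. Defining macrophage genes were abundant in all 4 libraries, with Csf1r between 45316 and 70480 normalised reads and Cd68 between 17180 and 18488. Itgam, which encodes CD11b, stood at 26151 and 26738 (WT) against 40692 and 30075 (EpiKO). Markers of other cells were also read. The 8 keratinocyte markers summed to 4089 and 668 in WT and to 7158 and 5958 in EpiKO, with Krt14 at 1907 in WT replicate 1 and 28.6 or less in the other libraries. Krt8 was at 446 and 234 (WT) against 1999 and 4164 (EpiKO). Of these 8, 4 were tested and none passed limma or edgeR, 2 had an unadjusted p under 0.05, against 15.6% of tested genes, and DESeq2 called 3, against 6.04%. Fibroblast markers summed to between 17940 and 31236. Neutrophil markers summed to 203 and 1458 in WT and to 231 and 257 in EpiKO, so that WT replicate 2 stood apart, and none of the 4 tested passed limma or edgeR, 1 had an unadjusted p under 0.05 and DESeq2 called 1. In bulk RNA, fewer cells of a type and less RNA per cell cannot be told apart, and this holds for every difference that follows.

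Levels between factors can be compared per length of exon. On the scale of normalised reads per kb of exon, Cebpb was highest with a mean of 7908 over the 4 libraries, then Klf4 at 5305, Spi1 at 3925, Bhlhe40 at 2632, Cebpa at 2337, Irf8 at 1194 and Maf at 790. Bhlhe41 at 90.8 and Irf4 at 49.9 were far below. The ranges over libraries separated Spi1 from Bhlhe40, Cebpa from Irf8 and Maf from Bhlhe41, whereas the neighbours Cebpb and Klf4, Klf4 and Spi1, Bhlhe40 and Cebpa, Irf8 and Maf, and Bhlhe41 and Irf4 overlapped. Among tested genes, ranked by the same quantity, Cebpb was at percentile 98.95, Spi1 at percentile 97.6 and Irf4 at percentile 27.6. The order was the same when the longest coding transcript gave the length, an alternative chosen after seeing the data. Cebpa and Irf8 then overlapped, with a lowest value of 1453 for Cebpa and a highest of 1734 for Irf8. The annotation used for counting is not given in the sources used here, so the lengths are those of GENCODE M21.

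The spread between replicates set what could be told apart. Replicates of a group differed by 0.18 log2 units in WT and 0.19 in EpiKO for the median tested gene. Cebpa, Cebpb, Irf8, Bhlhe40 and Bhlhe41 differed by more than that in both groups, Irf4 and Klf4 in WT alone, Maf in EpiKO alone and Spi1 in neither. The widest gaps were those of Bhlhe41 in EpiKO, at 0.82, and of Irf4 in WT, at 0.76. In 5 of the 9 factors, Spi1, Cebpa, Maf, Klf4 and Bhlhe41, the log2 fold change between groups exceeded both replicate differences, as it did in 34.7% of tested genes.

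Spi1 varied little between replicates. Its normalised read counts were 8497 and 8558 (WT) against 7274 and 7602 (EpiKO). Both EpiKO libraries lay below both WT libraries, while replicates of a group differed by only 0.010 log2 units in WT and 0.064 in EpiKO. The mean went from 8528 ± 43.0 to 7438 ± 232 (SD, n = 2), a log2 fold change of -0.20 (SE 0.109, 95% interval -0.48 to 0.080, limma adjusted p = 0.477). That interval is for Spi1 alone and is not adjusted for the number of genes. Spi1 is on the plus strand of chromosome 2 of GRCm38, the mm10 assembly, from 91082390 to 91115756.

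Cebpa and Cebpb, which encode C/EBPα of the granulocyte and monocyte progenitor and C/EBPβ of inflammatory and alternatively activated macrophages, went in opposite directions. Cebpa stood at 8581 and 6361 (WT) against 3815 and 5885 (EpiKO). Its EpiKO values lay below the WT values, but by a narrow margin in EpiKO replicate 2. The log2 fold change was -0.64 (SE 0.263, limma adjusted p = 0.343). Cebpb stood at 12546 and 9187 (WT) against 15052 and 10791 (EpiKO), where the groups overlapped and the log2 fold change was 0.25 (SE 0.236, limma adjusted p = 0.703). Per kb of exon, Cebpb was 2.56 and 2.53 times as high as Cebpa in the WT libraries and 6.91 and 3.21 times as high in the EpiKO libraries. The WT ratios were nearly equal, and the EpiKO ratios were both higher and far apart. In WT both genes were higher in replicate 1 than in replicate 2, by 0.43 log2 units for Cebpa and 0.45 for Cebpb. Cebpa is on chromosome 7 from 35119293 to 35121928 and Cebpb on chromosome 2 from 167688915 to 167690418, both on the plus strand.

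Irf8, which encodes a partner of PU.1 in monocytes and in cross-presenting dendritic cells, was at 4132 and 3465 (WT) against 3869 and 4937 (EpiKO). The groups overlapped, and the log2 fold change was 0.21 (SE 0.169, limma adjusted p = 0.647). Irf4, whose product acts in alternative macrophage activation and in dendritic cells and plasma cells, was read far less. It was at 365 and 215 (WT) against 191 and 181 (EpiKO). The EpiKO libraries were close together and just under WT replicate 2, and WT replicate 1 was highest. The log2 fold change was -0.59 (SE 0.280, limma adjusted p = 0.401) with all libraries and -0.21 without WT replicate 1. Per kb of exon the ratio of Irf8 to Irf4 was 15.7 and 22.3 in WT and 28.2 and 37.9 in EpiKO.

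Markers of dendritic cells and of B and plasma cells, which also use Irf4, were read beside it. The 6 genes of the dendritic cell list summed to 1368 and 713 in WT and to 84.0 and 106 in EpiKO. In WT, but not in EpiKO, most of the sum came from Cd207, the langerin gene of Langerhans cells. Cd207 was the only one of the 4 tested genes of the list to pass (limma, lower), against 0.53% of tested genes called lower. Its limma adjusted p of 0.0329 lay between 0.0748 and 0.162 when any 1 library was left out. Ccr7, a receptor of migrating dendritic cells, was at 116 and 56.3 (WT) against 32.3 and 35.9 (EpiKO), Zbtb46 was level at 26.7 and 19.3 (WT) against 22.6 and 23.6 (EpiKO), and Flt3 was at 22.0 and 46.2 (WT) against 5.38 and 21.7 (EpiKO), while Xcr1 and Clec9a had values of at most 2.32. Their part in the Irf4 values was not tested. For B and plasma cells, Pax5 was at 0 in all 4 libraries and Jchain and Cd79a had values of at most 1.68. Cd79b, the only one of these 5 markers tested, was at 76.5 and 70.6 (WT) against 19.4 and 61.4 (EpiKO) and did not pass, and Ms4a1 was at 4.64 or less. Irf4 is on chromosome 13 from 30749226 to 30766976 and Irf8 on chromosome 8 from 120736358 to 120756694, both on the plus strand.

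Maf, which encodes c-MAF of resident and IL-10 producing macrophages, was at 4782 and 5196 (WT) against 6535 and 9540 (EpiKO). Both EpiKO libraries were above both WT libraries, and EpiKO replicate 2 was highest by a wide gap. The mean went from 4989 ± 293 to 8037 ± 2125 (SD, n = 2), a ratio of 1.61 and a log2 fold change of 0.66 (SE 0.204, limma adjusted p = 0.221). Without EpiKO replicate 2 the log2 fold change was 0.39. DESeq2 on the recovered reads gave an adjusted p of 0.0393, and the 15 alternatives to the limma test ranged from 0.0393 to 0.603. The gene is on the minus strand of chromosome 8 from 115682942 to 115707794.

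**Figure D2:**
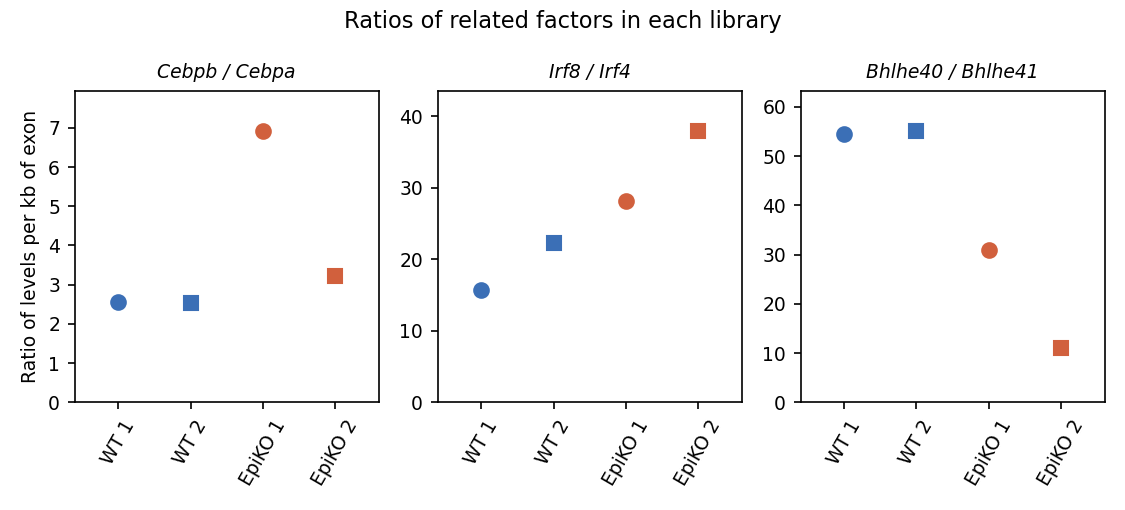
Ratio of the levels per kb of exon for pairs of related factors, with a panel for each pair, a linear axis from 0 and a point for each library (WT blue, EpiKO orange). The WT and EpiKO points do not overlap in any panel, where Cebpa, Irf4 and Bhlhe41 were already outside the overlap by themselves. Each pair gave an exact two-sided permutation p of 0.33, the smallest possible with these libraries. The EpiKO libraries stand far apart for Cebpb over Cebpa (6.91 and 3.21) and Bhlhe40 over Bhlhe41 (31.0 and 11.0).

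Klf4, needed for the formation of inflammatory monocytes and also an abundant factor of the skin epithelium, was at 21370 and 16835 (WT) against 13682 and 12391 (EpiKO). Both EpiKO libraries lay below both WT libraries. The mean went from 19102 ± 3207 to 13036 ± 913 (SD, n = 2), so that WT was 1.47 times as high, with a log2 fold change of -0.54 (SE 0.164, limma adjusted p = 0.209). DESeq2 gave an adjusted p of 0.0478, within a range of 0.0478 to 0.602 over the 15 alternatives. Without WT replicate 1, the library with high Krt14 and with Krt5 at 736, the log2 fold change of Klf4 was -0.37, and the part of keratinocyte RNA in it was not tested. The sum over the whole keratinocyte list, given above, was higher in EpiKO, where Krt8, Krt18 and Cdh1 made up most of it. Klf4 is on the minus strand of chromosome 4 from 55527143 to 55532466.

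Bhlhe40 and Bhlhe41 encode closely related repressors, known also as DEC1 and DEC2, that bind E-boxes and take part in the circadian clock. Bhlhe41 was at 387 and 282 (WT) against 579 and 1026 (EpiKO). Both EpiKO libraries exceeded both WT libraries, EpiKO replicate 2 most. The mean went from 335 ± 74.0 to 803 ± 316 (SD, n = 2), a log2 fold change of 1.22 (SE 0.319, 95% interval 0.40 to 2.04, limma adjusted p = 0.173). DESeq2 gave an adjusted p of 0.00588, the lowest of a range up to 0.471 over the 15 alternatives. Without EpiKO replicate 2 the log2 fold change was 0.81. By its limma p, Bhlhe41 had rank 915 among the 12463 tested genes.

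Bhlhe40 was at 10673 and 7870 (WT) against 9084 and 5732 (EpiKO). The groups overlapped, and the log2 fold change was -0.34 (SE 0.275, limma adjusted p = 0.640). Per kb of exon Bhlhe40 was 54.5 and 55.1 times as high as Bhlhe41 in WT, and 31.0 and 11.0 times in EpiKO. The ratio thus hardly varied between the WT libraries, and was lower in both EpiKO libraries, to unequal degrees. In WT both genes were higher in replicate 1 than in replicate 2, by 0.44 log2 units for Bhlhe40 and 0.45 for Bhlhe41. Of the 3 pairs of relatives none can give an exact two-sided permutation p under 0.33 with 2 libraries against 2, and each gave 0.33, also after Benjamini-Hochberg adjustment over the 3. Both genes are on chromosome 6, Bhlhe40 on the plus strand from 108660629 to 108666925 and Bhlhe41 on the minus strand from 145858243 to 145865558.

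**Figure D3:**
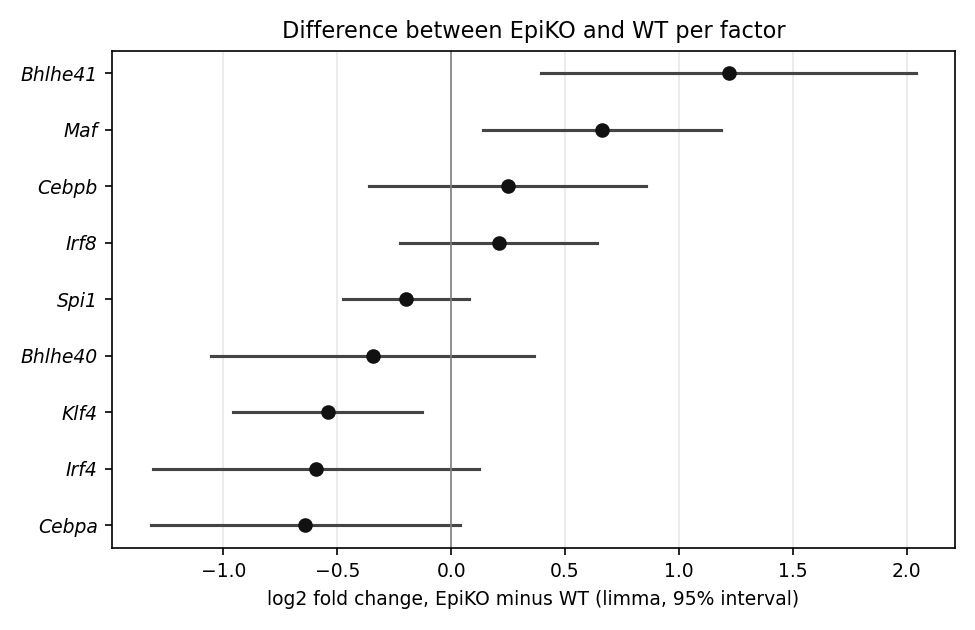
log2 fold change of EpiKO against WT for each factor (dot) with its 95% interval from limma (line), not adjusted for the number of genes. The intervals of Bhlhe41 (0.40 to 2.04), Maf (0.14 to 1.18) and Klf4 (-0.96 to -0.13) leave out 0, and those of the other 6 include it.

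Of the 9 genes, 6 had promoters in the RefSeq table used here (GRCm38.p6), with 7 starts in all. Among these, the E-box letters CACGTG, the same on both strands and the letters that BHLHE40 and BHLHE41 bind, were found upstream of Klf4 and Bhlhe41. Cebpa and Irf4, also among the 6, were outside the overlap of the groups too and had no E-box. Non-overlap held for 47.1% of tested genes. The promoters of Klf4 and Bhlhe41 are shown because both genes were outside the overlap, in opposite directions. Each is the 250 bases before the start, 5′ to 3′ on the gene's strand, with the E-box in capitals, from chr4:55532476-55532725 for Klf4 and chr6:145865421-145865670 for Bhlhe41, both on the minus strand.
Klf4: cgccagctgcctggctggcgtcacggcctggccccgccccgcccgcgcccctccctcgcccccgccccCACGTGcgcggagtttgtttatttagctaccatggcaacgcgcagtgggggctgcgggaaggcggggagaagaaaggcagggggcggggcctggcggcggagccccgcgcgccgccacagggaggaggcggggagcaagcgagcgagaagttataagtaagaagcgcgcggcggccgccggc
Bhlhe41: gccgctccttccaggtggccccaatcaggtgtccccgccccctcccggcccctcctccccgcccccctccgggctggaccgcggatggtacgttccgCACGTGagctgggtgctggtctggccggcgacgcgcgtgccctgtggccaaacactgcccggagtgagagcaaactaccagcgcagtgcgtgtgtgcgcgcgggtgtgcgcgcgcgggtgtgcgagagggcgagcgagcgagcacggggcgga
The E-box begins 182 bases before the RefSeq start in Klf4 and 153 bases before that of Bhlhe41. In GENCODE M21, whose coordinates are given above, Bhlhe41 reaches to 145865558. Part of the Bhlhe41 window, though not its E-box, thus lies inside the gene by that annotation. CACGTG occurs in 6.02% of the 32851 RefSeq promoters of 250 bases. The other motifs searched on both strands were GAGGAAGT for PU.1, TTGCNNAA for C/EBP, GAAANNGA for IRF, TGCTGAC for MAF and CCACACCC for KLF factors. They occur in 2.44%, 9.56%, 18.1%, 3.81% and 3.20% of promoters, and of these only the IRF letters were in the windows of the 6 genes, at 2 places before the upstream start of Irf8 and at 1 place before its downstream start. The longer PU.1-IRF composite motif and the interferon-stimulated response element, in 2.30% and 2.98% of promoters, were searched first and had no match before the 6 genes; the shorter IRF letters were added after that was seen. CACGTG is bound by other helix-loop-helix factors too, and a match is not a measured binding site.

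Around the 9 factors, 65 other transcription factors of myeloid cells were listed, of which 62 were tested. Klf10, a factor induced by TGF-beta, was the single one that passed, at a lower level in EpiKO, against 0.53% of tested genes called lower. The remaining 61 did not pass. Klf10 fell by 1.23 log2 units (SE 0.154, limma adjusted p = 0.0471). It was at 3777 and 2903 (WT) against 1401 and 1425 (EpiKO). Its adjusted p by edgeR was 0.0501, and it lay between 0.131 and 0.162 by limma when any 1 library was left out. The median log2 fold change of the 62 was -0.063. DESeq2 called 9 of them, against 6.04% of genes: Klf10, Klf6, Mafk, Ddit3, Etv3, Id3, Nr1h3, Prdm1 and Tfec. In each list that follows, the count at an unadjusted p under 0.05 stands against 15.6% of tested genes and the count by DESeq2 against 6.04%.

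Of 7 other KLF genes 1 passed, Klf10, and 6 did not. At an unadjusted p under 0.05, 0 were higher and 4 lower, and DESeq2 called 2. The log2 fold change was below 0 in 5 of the 7, against 50.3% of tested genes, and its median was -0.43. Klf6, an early response factor of macrophages, was at 16280 and 14739 (WT) against 10738 and 11191 (EpiKO). Klf2, which restrains inflammatory activation, was at 11139 and 10393 (WT) against 5791 and 8333 (EpiKO). Klf6 and Klf2 had log2 fold changes of -0.50 and -0.63 (limma adjusted p = 0.151 and 0.229). Klf3 and Klf7 were on the positive side at 0.30 and 0.17.

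Of 11 other C/EBP and bZIP factors none passed limma or edgeR, 3 had an unadjusted p under 0.05 and DESeq2 called 2. Mafk, a small MAF protein without an activation domain, was at 3643 and 2639 (WT) against 1353 and 1340 (EpiKO) (log2 fold change -1.20, limma adjusted p = 0.0602). Ddit3, the stress factor CHOP, differed by -1.20 log2 units (SE 0.270) and Nfil3 by 0.77. Cebpd, the third C/EBP of macrophages, was at 615 and 535 (WT) against 655 and 827 (EpiKO).

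Of 7 other interferon regulatory factors none passed limma, edgeR or DESeq2, and 2 had an unadjusted p under 0.05. Irf7, the amplifier of the interferon response, and Irf2 had log2 fold changes of -0.95 and 0.30 (limma adjusted p = 0.245 and 0.289). Irf5, a factor of inflammatory macrophages, was at 4291 and 4216 (WT) against 4178 and 3846 (EpiKO).

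Among 12 tested ETS, RUNX and GFI factors none passed limma or edgeR, 5 had an unadjusted p under 0.05 and DESeq2 called 1. Etv3, a repressor of the ETS family, was at 1705 and 1758 (WT) against 1011 and 1222 (EpiKO) (log2 fold change -0.64, limma adjusted p = 0.107). Elf1 had a log2 fold change of -0.36, Ets1 one of 0.93 and Runx2, the factor of bone-forming cells, one of 1.23. Runx1, the partner of PU.1 and C/EBPα, was at 3474 and 2862 (WT) against 2972 and 3109 (EpiKO).

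Among 13 other helix-loop-helix and Id factors none passed limma or edgeR, 5 had an unadjusted p under 0.05 and DESeq2 called 2. Id3, an inhibitor of helix-loop-helix factors found in Kupffer cells, was at 1142 and 852 (WT) against 507 and 534 (EpiKO) (log2 fold change -0.92, limma adjusted p = 0.0860). The related genes Tfec and Mitf, both of the osteoclast and macrophage lineage, were on opposite sides at 1.12 and -0.51 (limma adjusted p = 0.106 and 0.180). Of 12 nuclear receptors and other identity factors none passed limma or edgeR, 5 had an unadjusted p under 0.05 and DESeq2 called 2. Nr1h3, which encodes the oxysterol receptor LXRα, was at 427 and 346 (WT) against 191 and 198 (EpiKO) (log2 fold change -0.98, limma adjusted p = 0.0754), and Prdm1, the repressor BLIMP1, had a log2 fold change of -0.89 and Rxra one of 0.45. Gata6, the factor of peritoneal macrophages, was low, at 11.6 and 3.36 (WT) against 25.8 and 52.0 (EpiKO), with a log2 fold change of 2.35 (limma adjusted p = 0.208).

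**Figure D4:**
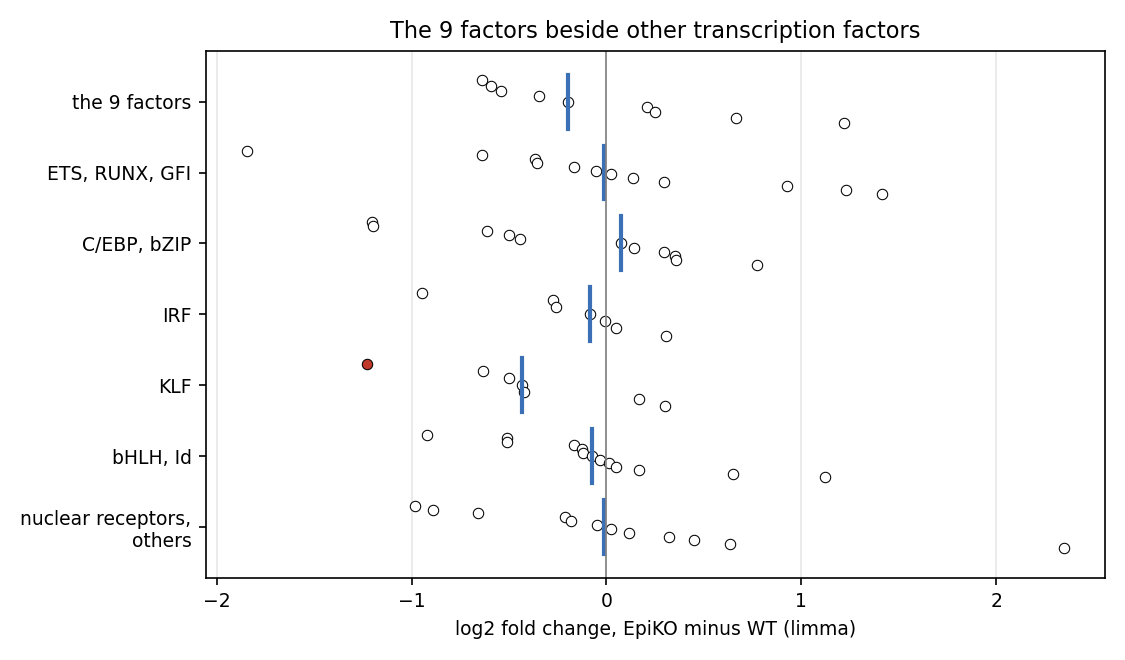
log2 fold change of EpiKO against WT by limma for the 9 factors and for 6 lists of other transcription factors, with a circle for each tested gene, red where it passed and white where it did not, and a blue bar at the median. Klf10 in the KLF list, at -1.23, is the single red circle, and the KLF list has the lowest median, at -0.43.

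Genes listed as targets of the factors, or as linked to them, were read beside them. Whether they depend on the factors in these cells was not tested. Among 17 PU.1 targets of myeloid cells none passed limma or edgeR, 2 had an unadjusted p under 0.05 and DESeq2 called 1, and the median log2 fold change was 0.10. The log2 fold changes lay between -0.52 and 0.59, the latter that of the Fc receptor gene Fcgr3 (limma adjusted p = 0.178), and Csf2rb stood at 0.51. Of 9 tested C/EBP targets Nos2, the inducible nitric oxide synthase, passed at a higher level, against 0.417% of tested genes called higher, and 8 did not pass. At an unadjusted p under 0.05, 4 of the 9 were higher and 1 lower, and DESeq2 called 4. Nos2 was at 56.8 and 24.4 (WT) against 702 and 487 (EpiKO), with a limma adjusted p of 0.0471 that lay between 0.100 and 0.162 when any 1 library was left out. Il6 and Ptgs2, inflammatory products, had log2 fold changes of 2.57 and 1.35, and Lcn2, the siderophore binder lipocalin 2, one of -1.67. The granule genes Elane, Mpo and Ctsg, which mark C/EBP activity in granulocyte precursors, had values of at most 6.72.

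Nos2 is also among the 10 tested IRF8 targets, and the other 9 did not pass. At an unadjusted p under 0.05, 1 of the 10 was higher and 1 lower, and DESeq2 called 2. Ctss, the cathepsin of antigen presentation, was level at 72994 and 58213 (WT) against 64650 and 65386 (EpiKO). Of 10 tested targets of IRF4 and KLF4 in alternative activation none passed limma or edgeR, 3 had an unadjusted p under 0.05 and DESeq2 called 1, with a median log2 fold change of 0.75. Arg1 was at 10187 and 9175 (WT) against 54192 and 16393 (EpiKO). Its log2 fold change of 1.62 was smaller than the gap of 1.72 between its EpiKO replicates. Mrc1 had a log2 fold change of 0.67 and Pdcd1lg2 one of 1.94. Chil3, the chitinase-like protein Ym1, was at 39879 in EpiKO replicate 1 and between 1263 and 2421 in the other libraries.

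Of 14 tested genes of resident macrophages, listed for their link to MAF, 1 passed, against 0.417% called higher over all genes, and 13 did not. At an unadjusted p under 0.05, 5 of the 14 were higher and 0 lower, and DESeq2 called 5. Lyve1, a hyaluronan receptor, rose by 3.18 log2 units (SE 0.244, limma adjusted p = 0.0334). Its values were 409 and 400 (WT) against 4684 and 2877 (EpiKO), and its limma adjusted p lay between 0.0445 and 0.185 when any 1 library was left out. F13a1 and Cd163, of coagulation and of haemoglobin uptake, had log2 fold changes of 1.22 and 1.32 (limma adjusted p = 0.0551 and 0.195). In 8 of the 14 genes the EpiKO libraries lay above the WT libraries, against 23.3% of tested genes, and in 0 below them. The list was chosen with earlier results of these data known, so these counts are no independent test of MAF activity. Il10, a direct target of MAF, was nearly level at 122 and 129 (WT) against 115 and 125 (EpiKO), and the complement genes C1qa, C1qb and C1qc had log2 fold changes of -0.16, -0.075 and -0.13.

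Of 8 genes linked to BHLHE40 and BHLHE41, a list that includes Maf, none passed limma or edgeR. An unadjusted p under 0.05 was found for 3, Maf among them, and DESeq2 called 1, which was Maf itself. The clock gene Arntl, which encodes BMAL1, was at 500 and 509 (WT) against 353 and 374 (EpiKO) (log2 fold change -0.47, limma adjusted p = 0.159). Dbp, a clock output gene, was at 178 and 129 (WT) against 63.5 and 99.2 (EpiKO). Per1 and Clock had log2 fold changes of -0.17 and 0.010.

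Exons of Cebpa, Maf, Bhlhe40 and Bhlhe41 overlap those of a gene on the other strand in GENCODE M21. The strand setting of the counting is not given in the sources used here, so reads of such pairs may not be told apart. The partner of Bhlhe40, 0610040F04Rik, had values from 0 to 2.15.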

How the data were processed

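Per the labels' protocols, mRNA of 4 libraries was enriched by poly-A selection before an Illumina TruSeq RNA preparation. The submitters' processing notes name build mm10, the aligner STAR 2.5.2b, the counter featureCounts 1.5.0-p3, the tool DESeq2 and bcl2fastq 2.17. The authors deposited a gene signal, in which each library's reads were divided by its own size factor. This was read from the values: within 1e-06 reads, 100% of values divided evenly by that of a single read (0.841 to 1.16), which gave back the reads.

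Of the genes, those reaching a value of 10 in 2 or more libraries were tested on log2(value + 1) by limma 3.58.1 in R 4.3.3, with trend and robust moderation and no covariate, EpiKO against WT, two-sided. This scale understates changes of low genes. The p-values were adjusted over all 12463 tested genes. edgeR 4.0.16 (quasi-likelihood, TMM) and DESeq2 1.42.0 on the recovered reads, other scalings, filters and pseudocounts, and leaving out each library were alternatives. The edgeR and DESeq2 settings were changed after results were seen, and the first settings were kept as added alternatives. The limma step was also tested on simulated data.

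The 9 genes and the 22 lists were chosen with earlier results of these data known. Named genes are all 9 members and, per list, called genes and up to 4 with the smallest p (marker lists: up to 3 with the highest mean). Any other gene named was chosen after its values were seen. Of 197 list entries, 5 matched an older symbol and 1 was not found. Some listed genes, and a ratio that used one of them, are not reported here and were left out of the counts over lists.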

Additional observations from a re-analysis of the deposited data

How the results depend on the processing

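Each of the 9 factors kept its sign in all 15 alternatives, though non-overlap of the groups fixed this for 6 of them when a library was left out. The count of called factors was 0 in 13 alternatives and 3 with DESeq2 on the recovered reads (Bhlhe41, Maf and Klf4), whether given all genes or the tested ones. Leaving out 1 library gave log2 fold changes from 0.81 to 1.63 for Bhlhe41, 0.39 to 0.94 for Maf, -0.71 to -0.37 for Klf4, -0.95 to -0.33 for Cebpa, -0.97 to -0.21 for Irf4, -0.68 to -0.013 for Bhlhe40, 0.0074 to 0.49 for Cebpb, 0.032 to 0.38 for Irf8 and -0.23 to -0.17 for Spi1, with 0 factors called.

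Over all genes, 52 were called higher and 66 lower in EpiKO. Limma without trend called 13 and 18, and DESeq2 443 and 371. edgeR with robust moderation (48 higher, 57 lower) and DESeq2 on the tested genes alone (465 and 389) were run first. They were replaced, after their counts were seen, by edgeR without robust moderation (54 and 66) and DESeq2 on all genes, which gave the counts of an earlier analysis of these data. Leaving out 1 library gave 0 to 2 higher and 0 to 4 lower, where a lone library was taken to vary as the other group does. The count of other transcription factors was 1, and 0 under quantile normalization, limma without trend, both edgeR fits and each left-out library (0 to 0), and 9 with both DESeq2 fits. The cause was not tested. No paired analysis was possible because the labels carry no replicate numbers. The replicate numbers used here follow the order of the libraries in the deposited table. No scaling moved the median of all genes by more than 0.1 log2 units. With 177 to 315 reads a library Irf4 is the factor with the least depth.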
